A study of Homo sapiens with 16 samples.

Results

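The genes examined were the PDGF receptors and ligands: the receptor genes PDGFRA and PDGFRB, the receptor-like gene PDGFRL, and the ligand genes PDGFA, PDGFB, PDGFC and PDGFD. They are the PDGF genes of the annotation, proposed with earlier results of these data known, and made up 7 of the 20046 protein-coding genes of the annotation. A region with changed H3K27ac, a histone acetylation mark of active promoters and enhancers, was given to a gene when any base lay in the gene body or within 100 kb of the gene's 5′ end. By this rule 23 of the 7130 listed regions belonged to the family, 10 that lost H3K27ac and 13 that gained it.

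The data are H3K27ac ChIP-seq of the human cell line LX-2, immortalised hepatic stellate cells of myofibroblastic character, grown with 5% fetal bovine serum. Control cells were cultured without OSMI-1, and OGTi cells were kept in 50 µM of OSMI-1 over 24 h. This small molecule blocks OGT, the transferase that attaches the sugar O-GlcNAc to nuclear and cytosolic proteins. Each arm had 4 biological replicates, all from this 1 cell line. Lost regions had less H3K27ac in OGTi than in control cells and gained regions had more, at the adjusted p of 0.15 given in the names of the lists. The lists hold positions only, so that neither the size of a change, nor its spread over replicates, nor the read depth is known, and the stellate cell identity of the cultures could not be checked from them. A gene without a listed region may carry stable H3K27ac or none.

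PDGFs are dimeric growth factors that bind receptor tyrosine kinases on mesenchymal cells and drive their proliferation, migration and survival. PDGFRA binds dimers of the A, B and C chains, PDGFRB binds mainly the B and D chains, and the bound receptors recruit SH2-domain proteins that switch on RAS, PI3-kinase and phospholipase C signalling. In injured liver, PDGFRB rises as stellate cells turn into myofibroblasts, and PDGF is a potent mitogen for them.

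Loss of H3K27ac lay mainly at the receptor genes and gain mainly at the ligand genes. The receptor genes held 7 lost and 0 gained regions, which covered 14.1 kb of the 600 kb searched. The ligand genes held 3 lost and 13 gained regions, covering 6.52 kb and 25.5 kb of 1069 kb. This split rested on 2 genes, since PDGFRB held 5 of the 7 lost regions of the receptors and PDGFC held 12 of the 13 gained regions of the ligands. Without PDGFRB the receptors kept 2 lost regions, and without PDGFC lost regions made up 66.7% of those at the ligands instead of 18.75%. The map of the 7 genes and the bar plot of regions per gene show the same split.

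**Figure D1:**
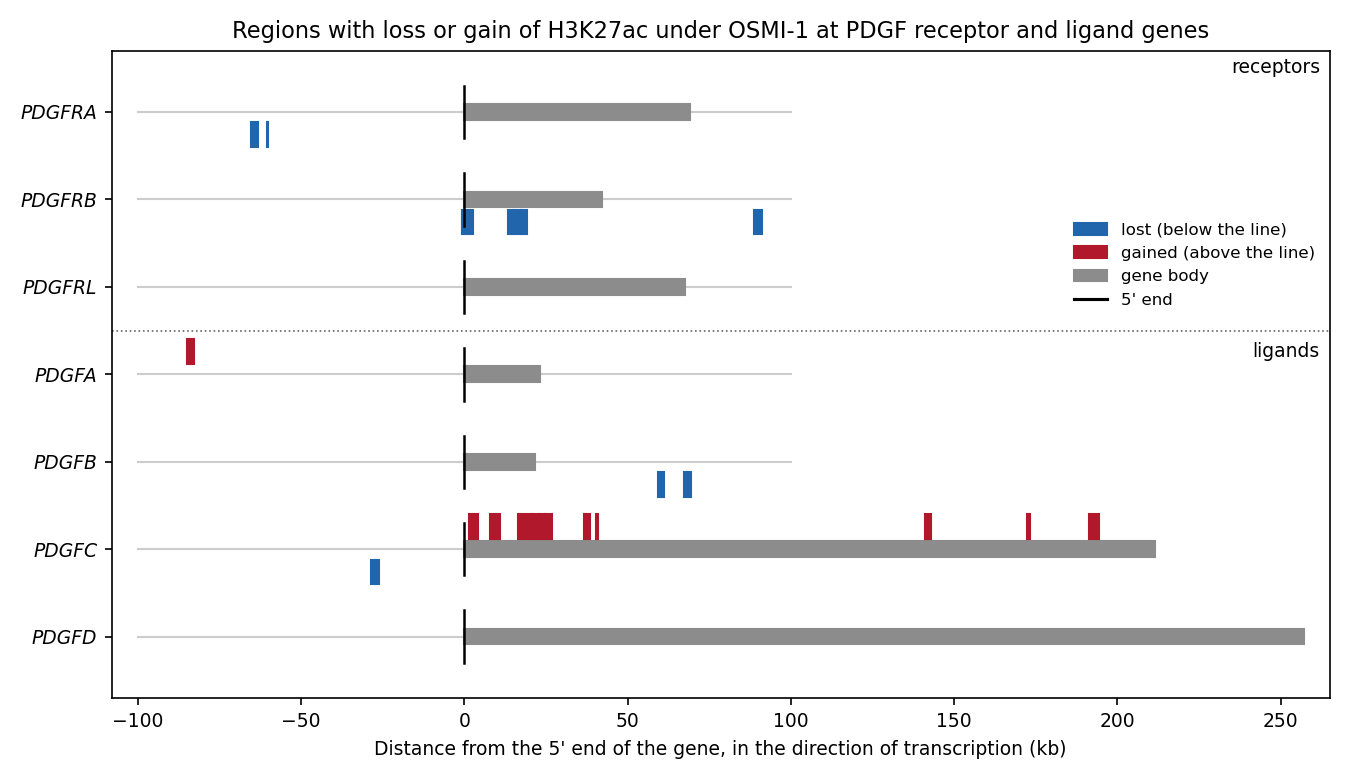
Position of listed regions at the 7 genes, with the distance from the 5′ end in kb on the horizontal axis (positive values lie in the direction of transcription). Blue blocks below a line are lost regions, red blocks above it are gained regions, grey bars are gene bodies and thin lines the searched interval; lost regions lie over the start of PDGFRB, gained regions line the body of PDGFC, and PDGFRL and PDGFD have no block.

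Lost regions were found at 2 of the 3 receptor genes and 2 of the 4 ligand genes, against 21.6% of all protein-coding genes by the same rule. Gained regions were found at 0 receptor genes and 2 ligand genes, against 30.5% of all. PDGFRA, PDGFRB and PDGFB had lost regions only, as did 14.4% of genes. PDGFA had gained regions only, as did 23.3%, and PDGFC had both kinds, as did 7.2%. PDGFRL and PDGFD had neither kind, like 55.1% of genes. With 7 genes, these shares describe the family and were not tested. PDGFRB and PDGFC differed from most genes in the number of their regions, given with each gene.

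**Figure D2:**
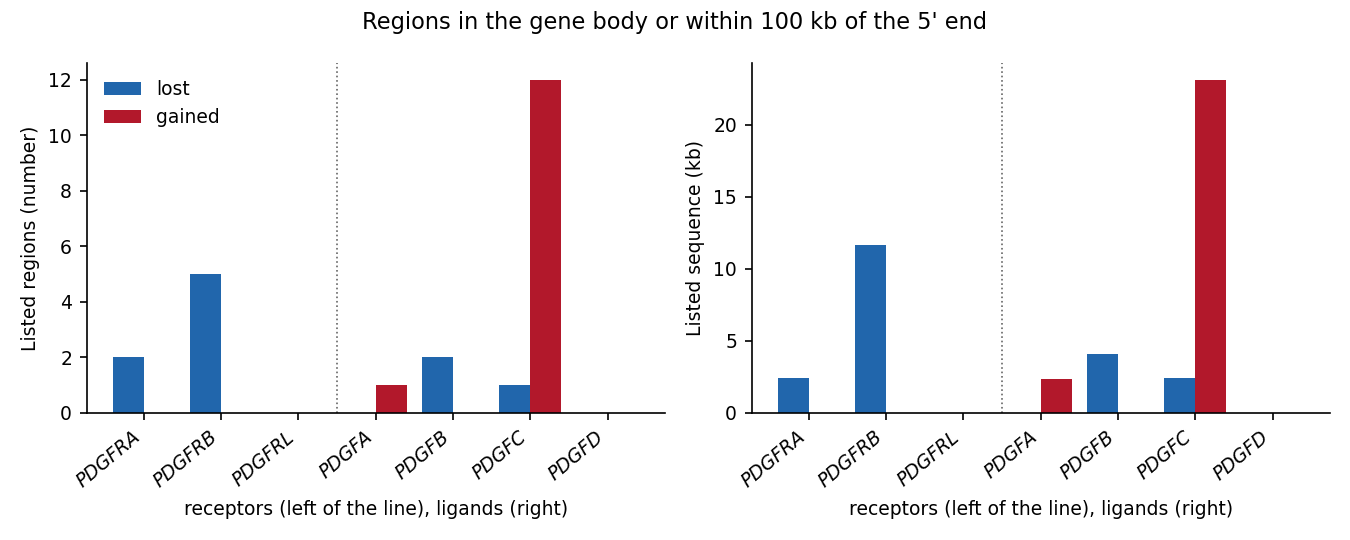
Number of listed regions (left) and listed sequence in kb (right) for each gene, with lost regions in blue and gained regions in red. PDGFRB reaches 5 lost regions and 11.6 kb, PDGFC reaches 12 gained regions and 23.1 kb, and no receptor gene has a red bar.

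PDGFRB encodes the receptor that is a standard marker of activated stellate cells and pericytes. It lies on the minus strand at chr5:150113839-150155872 (hg38, ENSG00000113721.14). Its first lost region, at chr5:150153103-150156454, spanned the 5′ end itself, from 582 bp upstream to 2769 bp downstream, and covered exon 1, the first part of intron 1 and 5 annotated transcript starts. With 3352 bp this region was at least as wide as 98.5% of lost regions. Peaks had been cut into bins, so this rank is that of a single listed region and not of a whole stretch of loss. The abutting regions described next spanned 5957 bp together. Of all protein-coding genes, 2.02% had a lost region within 2500 bp of the 5′ end, and PDGFRB was the only member of the family among them.

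The next 3 lost regions of PDGFRB abutted each other from 13.3 to 19.2 kb downstream of the 5′ end, at chr5:150136643-150142599. They formed a stretch of 5957 bp that ran from intron 1 through exon 2 into intron 2. In exon 2 it included 6 bases of UTR and the first 40 coding bases, and it held 1 further transcript start. The fifth lost region, at chr5:150064881-150067208, lay 88.7 kb downstream of the 5′ end and past the end of PDGFRB, in intron 10 of CSF1R. CSF1R encodes a related receptor tyrosine kinase of macrophages and follows PDGFRB head to tail. The 5 lost regions in reach of PDGFRB were also the 5 in reach of CSF1R, and the 5′ end of CSF1R, 46.2 kb away, was nearer to the fifth region than that of PDGFRB. No listed region lay within 2500 bp of the 5′ end of CSF1R.

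Counted together, the 5 lost regions covered 11.6 kb, or 5.82% of the interval searched. Of all protein-coding genes, 220 (1.10%) had 5 or more lost regions. With abutting regions joined PDGFRB had 3 lost blocks, a number that 2.91% of genes reached or passed. Of the 220 genes, 160 (72.7%) had no gained region, so that the absence of gain at PDGFRB was common among such genes. The nearest gained region to the PDGFRB 5′ end lay 216 kb away. Within 500 kb of the 5′ end, 11 lost regions and 1 gained region were listed, and within 1000 kb 14 and 3. In the gene body or within 2500 bp of the 5′ end, PDGFRB had 4 lost and 0 gained regions, and 62 other genes had at least as many lost and 0 gained. Those nearest to it in length were CREB3L1, an endoplasmic reticulum-bound transcription factor that drives collagen genes, SKP2, the F-box protein that targets p27 for degradation, and RARA, a retinoic acid receptor, with 4 lost regions each.

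**Figure D3:**
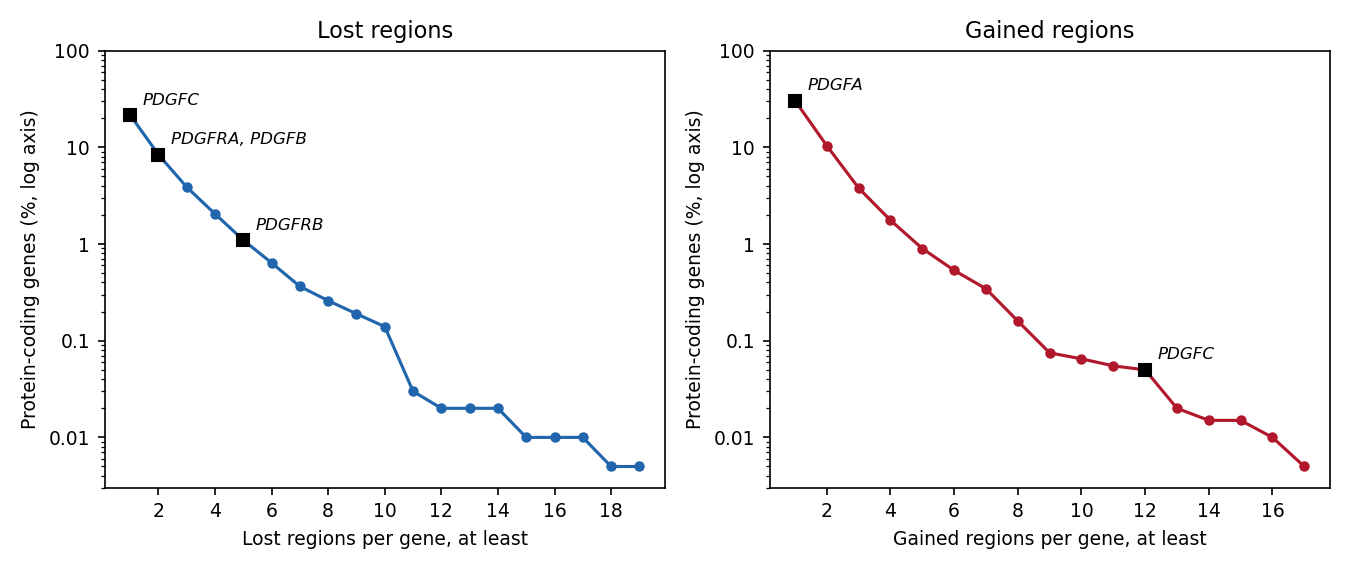
Share of protein-coding genes (vertical, log axis, in percent) with at least a given number of lost (left) or gained (right) regions (horizontal). Black squares mark the family members: PDGFRB, with 5 lost regions, sits where 1.10% of genes remain and PDGFC, with 12 gained regions, where 0.0499% remain, whereas PDGFRA, PDGFB and PDGFA sit on the common part of the curves.

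The sequence at the PDGFRB start is given because the first lost region covers it whole. The 223 bases before the 5′ end, at chr5:150155873-150156095 on the minus strand, are shown 5′ to 3′ from the RefSeq promoter table (GRCh38.p14), with the CCAAT box in capitals.
PDGFRB promoter: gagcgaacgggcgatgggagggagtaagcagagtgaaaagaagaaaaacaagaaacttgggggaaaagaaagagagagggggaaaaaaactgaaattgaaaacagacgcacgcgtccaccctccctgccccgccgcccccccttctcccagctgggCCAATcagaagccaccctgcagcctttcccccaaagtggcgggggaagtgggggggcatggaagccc
The CCAAT box began 67 bp before the 5′ end. This word was looked for after the sequence had been seen, and on either strand 34.6% of the 35116 promoters in the table hold it within 300 bases. The SP/KLF word GGGCGG, bound by SP1 and its relatives, matched 2 times in the 300 bases of the PDGFRB entry and at least once in 45.0% of promoters. Neither the TEAD words nor the AP-1 word described next matched there, and they matched in 4.15% and 7.71% of promoters. The PDGFRB promoter had a GC content of 59.3% (median 58.7%) and a CpG observed/expected ratio of 0.419 (median 0.579). Of the 7 genes, 4 matched the table, with 2 entries for PDGFRA, 1 for PDGFRB, 4 for PDGFA and 1 for PDGFD, and only the entry of PDGFRB overlapped a listed region of its gene. PDGFRL, PDGFB and PDGFC did not match.

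Upstream of that stretch, but still inside the first lost region, lay a pair of AP-1 words. AP-1 dimers of FOS and JUN proteins bind TGANTCA, and expression of several FOS and JUN genes follows PDGF receptor signalling. The 2 words, in capitals, began 433 and 283 bp before the 5′ end (chr5:150156129-150156325, hg38, minus strand), and the distal one shared its last base with a match to the RUNX word TGTGGTT on the other strand.
PDGFRB upstream AP-1: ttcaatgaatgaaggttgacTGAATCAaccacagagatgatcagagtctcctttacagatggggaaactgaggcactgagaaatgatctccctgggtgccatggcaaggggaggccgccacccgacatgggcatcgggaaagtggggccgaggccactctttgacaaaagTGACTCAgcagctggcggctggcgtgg
Of lost regions within 10% of the width of this one, 51.5% held at least as many AP-1 words, so that the pair is a usual content for its width.

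TEAD proteins, the DNA-binding partners of the mechanosensitive co-activator YAP1, recognise words such as ACATTCCA, ACATTCCT, GCATTCCA and GCATTCCT. These 4 words, searched on both strands, matched 6 times at PDGFRB, in 4 of its 5 lost regions. A pair of words lay 45 bases apart in intron 1, beginning 1598 and 1651 bp downstream of the 5′ end, and another began at 2073 bp. The abutting regions from 13.3 to 19.2 kb held 1 match each. The windows run along the minus strand of hg38, in the direction of the gene, and capitals mark the words or their reverse complements.
PDGFRB pair, chr5:150154194-150154294: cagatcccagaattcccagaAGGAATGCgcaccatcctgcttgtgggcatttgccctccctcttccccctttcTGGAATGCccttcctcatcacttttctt
PDGFRB single, chr5:150153772-150153819: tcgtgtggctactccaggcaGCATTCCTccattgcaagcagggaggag
PDGFRB region 2, chr5:150142060-150142107: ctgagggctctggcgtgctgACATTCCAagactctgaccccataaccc
PDGFRB region 3, chr5:150139518-150139565: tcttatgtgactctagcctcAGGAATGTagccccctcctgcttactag
PDGFRB region 4, chr5:150137583-150137630: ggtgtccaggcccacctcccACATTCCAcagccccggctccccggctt
At least 1 TEAD word was common in lost regions of like width to the abutting ones, at 46.7% to 47.7%. By contrast, 3 or more, as in the first region, occurred in 6.82% of lost regions of like width to it.

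PDGFRA encodes the receptor with the widest ligand range and lies on the plus strand at chr4:54229280-54298245 (ENSG00000134853.12). It had 2 lost regions and 0 gained ones, a number of lost regions that 8.42% of protein-coding genes reached or passed. Both lay far upstream, at chr4:54164043-54165992 and chr4:54168767-54169278, which is 63.3 and 60.0 kb before the 5′ end. PDGFRA had the nearest protein-coding 5′ end, and both regions also lay in intron 12 of ENSG00000282278, a long gene model that reads through PDGFRA. Unlike PDGFRB, PDGFRA had no listed region in its body or within 2500 bp of its 5′ end. Its nearest gained region lay 150 kb away, and within 500 kb of its 5′ end the counts were 4 lost and 3 gained. Within 1000 kb gained regions were in the majority, with 5 lost and 8 gained.

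The wider of the PDGFRA regions also held a pair of TEAD words, shown for comparison with that of PDGFRB. The words lay 53 bases apart, in opposite orientations, whereas both words of the PDGFRB pair run the same way. Of lost regions of like width, 12.6% held at least as many. The window is given on the plus strand. The narrower region, of 512 bp, held no match to any word searched.
PDGFRA pair, chr4:54165515-54165623: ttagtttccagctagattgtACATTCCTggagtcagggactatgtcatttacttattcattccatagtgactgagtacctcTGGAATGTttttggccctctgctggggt

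PDGFRL encodes a secreted or membrane-linked protein that resembles the receptors outside the cell but lacks the kinase. It lies at chr8:17576433-17644071 on the plus strand (ENSG00000104213.13) and had no listed region in reach. The nearest one was a gained region 821 kb away, and 91.4% of protein-coding genes had one nearer to their 5′ end. The nearest lost region lay 1510 kb away.

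PDGFC encodes a ligand that is secreted with a blocking CUB domain and becomes active once plasmin or tissue plasminogen activator cuts it off. It lies on the minus strand at chr4:156760454-156971799 (ENSG00000145431.11) and held 12 gained regions, all of them in its body. They covered 23.1 kb, or 7.43% of the interval. Counting PDGFC, 10 protein-coding genes (0.0499%) had 12 or more gained regions. Genes with a searched interval of like size seldom had as many: 0.116% of 1727 did, and 28.4% had any gained region at all.

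The gained regions of PDGFC were intronic throughout and overlapped no exon base and no annotated transcript start. In intron 1 lay 9 of them, between 1.31 and 40.9 kb downstream of the 5′ end. The first, at chr4:156967706-156970491, began 1308 bp inside the gene and made PDGFC the only member with a gained region within 2500 bp of its 5′ end, a class that held 6.39% of genes. The densest stretch, at chr4:156945053-156953402, was made of 4 abutting regions over 8350 bp, and a further region at chr4:156954030-156955303 preceded it in the direction of the gene, at a gap of 627 bp. After a gap of 100 kb came 1 region in intron 2, at chr4:156829050-156830753, and 2 in intron 3, at chr4:156798732-156799488 and chr4:156777566-156780380. Joining abutting regions left 9 gained blocks, a number that 0.0249% of genes reached or passed, and 8 when gaps of up to 1000 bp were joined as well.

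PDGFC was also the only member with both kinds of region. Its single lost region, at chr4:156997906-157000352, lay 26.1 kb upstream of the 5′ end, and 27.4 kb separated it from the first gained region. Of the 10 genes with 12 or more gained regions, 7 had no lost region. No further gained region was listed within 1000 kb of the 5′ end of PDGFC, where the counts were 2 lost and 12 gained. In the gene body or within 2500 bp of the 5′ end PDGFC had 12 gained and 0 lost regions, and 4 other genes had at least as many gained and 0 lost. The 3 nearest to it in length were VEPH1 with 16 gained regions, EXT1, a heparan sulphate polymerase, with 12, and ADAMTS12, a secreted metalloprotease, with 15.

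TEAD words matched 9 times in 6 of the 12 gained regions of PDGFC, and AP-1 words 12 times in 8 of them. In all gained regions the shares were 27.5% and 53.6%. Among gained regions of like width to each of the 12, they ran from 10.4% to 50.2% for TEAD. For AP-1 they ran from 25.3% to 78.7%, so that its frequency at PDGFC was not unusual for such widths. Windows on the minus strand are shown for the first gained region, for the start of the densest stretch, for the last region and for the region with 4 AP-1 words, of which a pair lay 14 bases apart.
PDGFC region 2, chr4:156968551-156968598: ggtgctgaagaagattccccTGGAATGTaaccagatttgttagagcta
PDGFC region 5, chr4:156952082-156952129: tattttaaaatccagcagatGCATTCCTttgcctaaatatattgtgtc
PDGFC region 13, chr4:156779284-156779331: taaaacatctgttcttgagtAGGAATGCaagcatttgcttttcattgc
PDGFC region 9 AP-1, chr4:156934071-156934138: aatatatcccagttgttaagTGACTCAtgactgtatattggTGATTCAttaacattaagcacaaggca
Having 3 or more TEAD words, as the region at the start of the densest stretch did, was seen in 2.03% of gained regions of like width, and having 4 or more AP-1 words in 3.58%. The lost region upstream held 2 AP-1 words and no TEAD word. The one nearer to the gene began 26825 bp before the 5′ end.
PDGFC lost upstream AP-1, chr4:156998598-156998644: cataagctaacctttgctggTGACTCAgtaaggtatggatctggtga

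PDGFB encodes the B chain, which binds both receptors and is the classical mitogen for stellate cells. It lies on the minus strand at chr22:39223359-39244982 (ENSG00000100311.17) and had 2 lost and 0 gained regions. They lay at chr22:39183732-39185807 and chr22:39175621-39177620, which is 59.2 and 67.4 kb downstream of the 5′ end and past the end of the gene. Both fell between genes and were nearer to the 5′ end of CBX7, a Polycomb protein gene, at 31.1 and 22.9 kb. PDGFB was therefore the only ligand gene with lost regions alone, as at PDGFRA and PDGFRB. On a count of the nearest 5′ end PDGFB kept no region, whereas PDGFC kept its lost region.

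Each PDGFB region held 1 TEAD word, printed on the minus strand. Of lost regions of like width, 48.0% and 47.7% held at least 1. The first also held an AP-1 word and an SRF CArG box, the binding word of serum response factor, which matched in 14.7% of all lost regions.
PDGFB region 1, chr22:39185057-39185104: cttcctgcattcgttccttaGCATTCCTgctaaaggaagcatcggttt
PDGFB region 2, chr22:39176330-39176377: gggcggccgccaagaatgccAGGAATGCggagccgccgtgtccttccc

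PDGFA encodes the A chain, whose homodimer signals through PDGFRA alone. It lies on the minus strand at chr7:497258-520296 (ENSG00000197461.13) and had 1 gained region, at chr7:603044-605374, 82.7 kb upstream of the 5′ end. The region lay in intron 6 of PRKAR1B, a regulatory subunit gene of protein kinase A, and also inside the long non-coding gene PRKAR1B-AS1, beginning 252 bp downstream of the 5′ end of that gene. Of protein-coding 5′ ends, that of PDGFA was the nearest. It held 2 AP-1 words and 1 TEAD word, given here on the minus strand. At 1 gained region PDGFA was like many genes, since 30.5% had 1 or more.
PDGFA region 1, chr7:603189-603236: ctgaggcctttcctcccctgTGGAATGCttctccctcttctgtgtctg

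PDGFD encodes a CUB-domain ligand of PDGFRB that is activated by urokinase. With 257 kb it is the longest of the 7 genes, at chr11:103907189-104164379 on the minus strand (ENSG00000170962.13), and had no listed region, whereas 23.1% of genes with an interval of like size had a lost region and 29.3% a gained one. The nearest listed region, a gained one, lay 538 kb from the 5′ end, and 85.5% of genes had one nearer. The 2 genes of CUB-domain ligands, both long, thus differed, with 12 gained regions at PDGFC and 0 at PDGFD.

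Base composition also differed among the regions of the family. The 5 lost regions of PDGFRB had GC contents of 55.3% to 58.9%, above the median of 46.8% of all lost regions, and the 2 of PDGFB had 56.6% and 60.7%. The 12 gained regions of PDGFC had 32.9% to 40.6%, below the median of 46.1% of all gained regions. The gained region of PDGFA, however, had 61.6%. The regions of PDGFRA (40.7% and 47.7%) and the lost region of PDGFC (39.8%) were not GC-rich. Composition thus did not follow the direction of change. CpG observed/expected ratios stayed low, at 0.164 to 0.212 for PDGFRB, 0.0754 to 0.233 for the gained regions of PDGFC and 0.343 for PDGFA. Gained regions as a whole included many of high CpG ratio, with an upper quartile of 0.649, and none of the 13 gained regions of the family was of that kind.

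**Figure D4:**
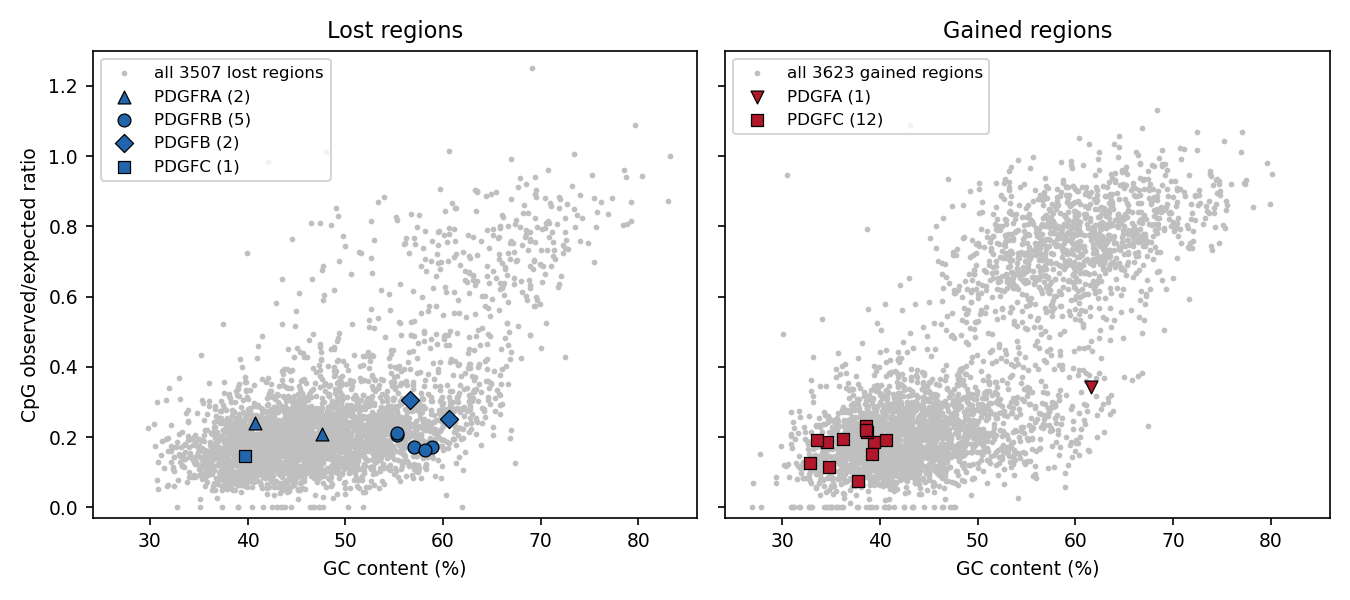
GC content in percent (horizontal) against CpG observed/expected ratio (vertical) for lost (left) and gained (right) regions. Grey points are all listed regions and coloured symbols those of the family: circles of PDGFRB lie together at 55.3% to 58.9% GC, squares of PDGFC gained regions at 32.9% to 40.6%, and no coloured symbol lies in the CpG-rich cloud at the top.

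Over the family, 7 of the 10 lost regions and 7 of the 13 gained ones held a TEAD word, whereas such words matched in 42.9% of the whole lost list and 27.5% of the whole gained list. Per kb of sequence this was 0.485 and 0.392 matches, against 0.324 and 0.207. The shares of the whole lists are not matched for width. AP-1 words matched in 6 of 10 and 9 of 13, against 56.5% and 53.6%. The SRF CArG box matched in 2 lost and 0 gained regions, against 14.7% and 7.76% of the lists. The word TGATGCAA of ATF4 with C/EBP matched in 0 of 23, against 4.36% of the lost list and 10.1% of the gained list, and the SMAD word GTCTAGAC, rare in both lists at 1.25% and 0.938%, in 0 of 23. TEAD and AP-1 words were thus found in lost and in gained regions of the family. A match gives letters in a region and not a bound site, and regions that abut share a neighbourhood and are not independent.

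To place the receptors and ligands in their pathway, 115 further genes in 9 lists were counted by the same rule. Lost regions were found at 26 of them (22.6%) and gained regions at 49 (42.6%). Among all protein-coding genes these shares were 21.6% and 30.5%, so that the lost share was close to that of all genes. The shares of all genes, here and for each list below, include genes that may be silent in LX-2 cells. They were not matched to the lists for activity. Of the 115 genes, 16 had lost regions only, 39 gained regions only, 10 both and 50 neither, against 14.4%, 23.3%, 7.2% and 55.1% of all genes. A gained region lay within 2500 bp of the 5′ end at 16 genes and a lost region at 4, against 6.39% and 2.02% of all genes.

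The lists closest to the receptors and ligands hold 5 to 9 genes each, and their counts stand beside shares of 21.6% (lost) and 30.5% (gained) over all genes. Around the receptors themselves, 2 of 6 related receptor tyrosine kinases had lost regions and 2 had gained ones: CSF1R as described, KIT with 1 lost, KDR with 2 gained and FLT3 with 1 gained region. Of 5 growth factors of the VEGF branch, relatives of the PDGFs, 2 had gained regions and 0 had lost ones. VEGFC, the lymphatic growth factor, had 4 gained regions in its body, 2 of them within 2500 bp of its 5′ end, and VEGFB had 2. Of 9 co-receptors and matrix partners 4 had gained regions, among them NRP1, a co-receptor of VEGF and PDGF, with 6, and CD44, the hyaluronan receptor, with 4. NRP2 and THBS1 had 1 lost region each. Of 7 ligand-processing proteases 2 had lost regions (PCSK7 with 3 and FURIN with 1) and 2 had gained regions: PLAT, which encodes tissue plasminogen activator, with 4 and PLAU, which encodes urokinase, with 1. With 28.6% in each direction, the proteases were near the shares of all genes. None of the gained regions of PLAT and PLAU lay within 2500 bp of their 5′ ends.

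Inside the cell, gained regions were more widespread than lost ones among the inhibitors of the pathway. Of 19 phosphatases, ubiquitin ligases and feedback inhibitors, 12 (63.2%) had gained regions and 2 had lost ones, against 30.5% and 21.6% of all protein-coding genes. That comparison was not matched for gene activity or gene density, and the difference was not tested. SPRY4 with 4 gained regions, SPRY2 and DUSP6 with 2 each and SPRED1 with 1 had gained regions within 2500 bp of the 5′ end. The Sprouty and SPRED proteins restrain RAS activation below receptor tyrosine kinases, and DUSP6 removes the activating phosphates of ERK. PTPN1, which encodes a phosphatase that acts on PDGF receptors, had 3 gained regions at a distance. Others of the 12 genes likewise had gained regions only outside the gene body and beyond 2500 bp of the 5′ end. ERRFI1 and SOCS3 were the 2 genes with both a lost and a gained region.

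Of 17 signalling enzymes recruited by the receptors, 12 had no region, 3 (17.6%) had lost regions and 2 (11.8%) gained ones. Of all genes, these shares were 55.1%, 21.6% and 30.5%. PIK3CB had 2 lost regions, FYN and VAV2 1 each, and RASA1, a RAS GTPase activator, 1 gained region within 2500 bp of its 5′ end. Among 17 adaptors 7 had gained regions and 3 lost ones, with gained regions within 2500 bp of the 5′ end at SH2B3 (5 in all), SHC1 (2) and GAB2 (1). Among 20 downstream kinases and STATs 9 had gained and 5 had lost regions. PRKCA had 3 of each, with 2 gained regions within 2500 bp of the 5′ end, and NRAS had 2 gained regions, 1 of them near the 5′ end.

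The genes listed as immediate early, many of which PDGF switches on within minutes, had the highest share with lost regions among the 9 lists. Lost regions were found at 7 of 15 (46.7%), and 9 of 15 had gained regions. These shares were 21.6% and 30.5% for all genes. The 4 genes of all 115 with a lost region within 2500 bp of the 5′ end were EGR1, EGR3, JUNB and SRF. Gained regions within 2500 bp of the 5′ end were seen at FOSL1 (6 in all), MYC (4) and ZFP36 (1). JUNB, EGR3 and SRF had 2 lost regions each and 0 gained ones. EGR1, MYC and ZFP36 had both kinds, each with 1 lost region in reach. The plot of the lists shows these shares beside those of all protein-coding genes.

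**Figure D5:**
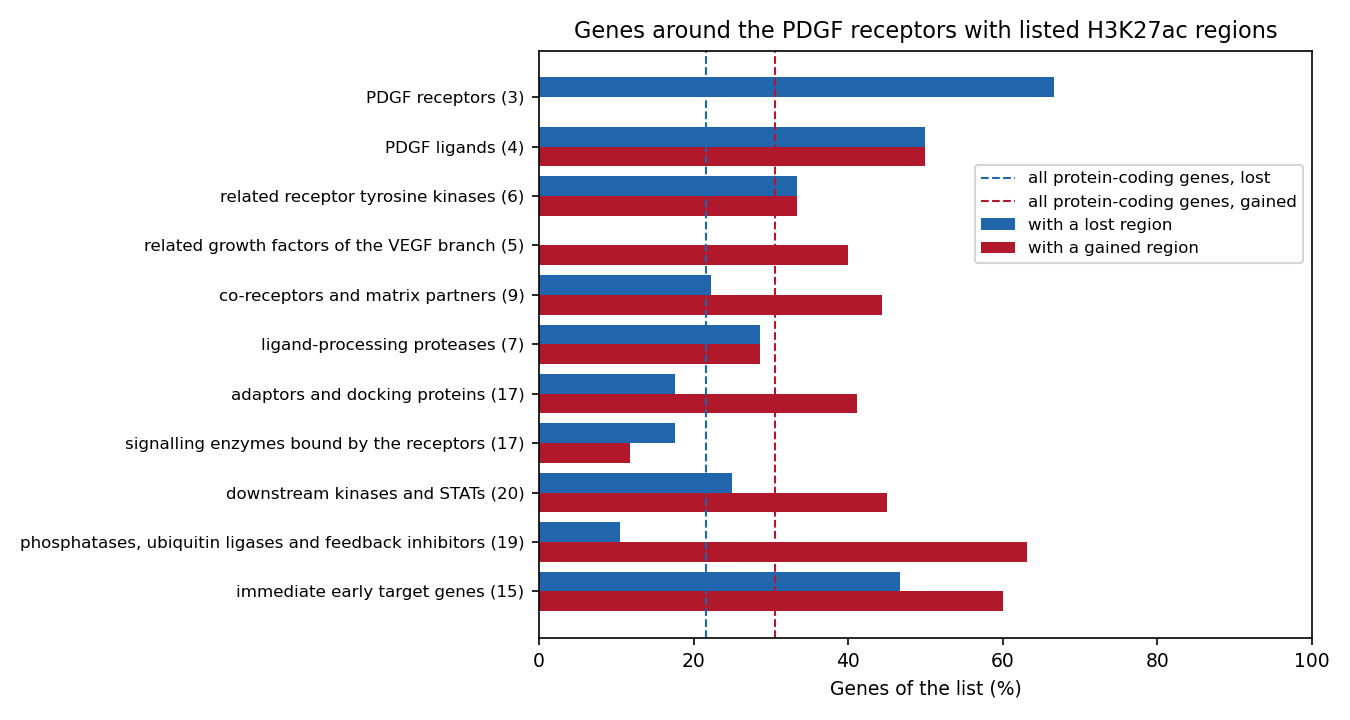
Percent of genes with a lost (blue) or gained (red) region in the PDGF receptors, the PDGF ligands and the 9 pathway lists, with the number of genes in parentheses. Dashed lines mark the shares of all protein-coding genes, 21.6% lost and 30.5% gained; the longest red bar is that of the phosphatases and feedback inhibitors at 63.2%, and the receptors have no red bar.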

How the data were processed

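H3K27ac ChIP-seq was made from 4 control and 4 OSMI-1 cultures of LX-2 cells. The other 8 of the 16 samples, input DNA and column purified chromatin, were not used here. The authors mapped single-end reads to hg38 (Chromap), found peaks per library over input DNA (MACS2 2.1.1.20160309 in the submitters' processing notes), removed duplicates and blacklisted reads, cut peaks into bins and tested the 8 libraries together with MAnorm2. Its mean-variance curve was fitted on OSMI-1 replicates and applied to control replicates. The 2 deposited lists hold chromosome, start and end alone, with no unused per-sample column (0). The methods text names a stricter adjusted p than the 0.15 of the list names, and the lists were taken at 0.15. Depth behind a region is unknown.

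Starts were counted from 1. All 7130 regions lay within hg38 chromosomes and 0 lost regions overlapped a gained one. Genes came from GENCODE release 44, in which all 7 symbols matched, and sequences from hg38 and the RefSeq promoter table, whose entries run from 250 bases before to 50 after a start. Counting and matching were done in Python 3.11.15 with pandas 2.3.3 and pysam 0.24.0 and were checked on simulated data. Like width means within 10% and like interval size within 25%. Windows carry 20 bases on each side of a word.

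The genes named were the 7 members, genes overlapping their regions, in each pathway list the genes with a region within 2500 bp of the 5′ end and up to 3 with the most regions per direction, and the 3 genes most alike in length for PDGFRB and PDGFC. KIT, KDR, FLT3, ERRFI1, PIK3CB and other listed genes fall under the second part. The members and lists were chosen with earlier results of these data known, so no test and no p-value is given. No batch is named in the labels.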

Additional observations from a re-analysis of the deposited data

How the results depend on the processing

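Of 89 recomputed values, 71 were classed as the same and 18 as moved. Counts classed as the same stayed within 1.5 times the reported count, but shares classed so could differ more. They included a lost share at the receptors of 70% instead of 100% within 200 kb. At the ligands they included 7.69% within 50 kb and 7.14% by the nearest 5′ end, instead of 18.75%. For 2 of the moved values, chosen after seeing the data, abutting regions were joined. The share of genes with as many lost regions as PDGFRB rose from 1.10% to 2.91%, and that with as many gained regions as PDGFC went from 0.0499% to 0.0249%. Lost regions at the receptors numbered 4 instead of 7 in gene bodies alone, 1 within 2500 bp of the 5′ end and 4 within 50 kb, and those at the ligands 0, 0 and 1 instead of 3. With regions given only to the nearest protein-coding 5′ end or the body that holds them, the ligands had 1 lost region. Gained regions at the receptors numbered 3 instead of 0 within 200 kb, all at PDGFRA, and those at the ligands 1 instead of 13 within 2500 bp. The lost share at the ligands was then 0%, as in gene bodies. Leaving out 1 gene at a time gave 2 to 7 lost regions at the receptors, 1 to 3 lost and 1 to 13 gained regions at the ligands, and a lost share at the ligands of 7.14% to 66.7%. Gained regions of the family with a TEAD word fell from 7 to 4 when the central 1000 bp was searched. These shifts came with a narrower or wider search, a gene left out, the joining of abutting regions or the rule of the nearest 5′ end.

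No paired analysis was possible because no value per replicate stands in the 2 lists, and no replicate was left out for the same reason. Regions just short of the threshold and unchanged regions were not analysed here. Whether a listed region acts on the named gene or a neighbour was not tested, which matters most for the fifth PDGFRB region, both PDGFB regions and the PDGFA region.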
